A study of Mus musculus with 2 samples.

Results

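The genes described here are 9 epithelial transcription factor genes, Elf3, Ehf, Grhl2, Klf5, Sp5, Sox9, Tbx3, Foxq1 and Onecut2, among the 22620 genes counted in 2 single-cell RNA sequencing libraries of mouse tumours and lymph nodes. They were listed by name and chosen by their UMIs in cancer cells, which earlier results of the same libraries had shown, so their presence in these cells is given as a description. The libraries came from C57BL/6J mice bearing EO771-HEVM3 tumours, in which EO771 is a mouse breast cancer cell line and HEVM3 a derivative taken through 3 rounds of selection in mice for cells that reached the lung by way of high endothelial venules, which are the entry vessels for lymphocytes in the node. The first library held the primary tumours and the second the paired lymph nodes of the same 6 mice, pooled by tissue, and both were made with 3′ counting on the 10x Genomics platform. The comparison of tissues asks how cancer cells at the site of origin and in the lymph node differ. Each tissue is 1 library of pooled mice, so no test between tissues was possible, and every interval below is a 95% interval that covers counting error only, Poisson for levels and for numbers of cells with both genes of a pair, and Clopper-Pearson for shares of cells and, conditionally, for ratios between tissues. The tissues were digested with different enzymes and for different times, and the part of that difference in any result cannot be told apart from the tissue.

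The 9 genes belong to several families of DNA-binding proteins. Elf3 and Ehf are ETS factors of glandular epithelium, which bind a GGAA core. Grhl2 is a grainyhead factor that maintains E-cadherin and the claudins of epithelial junctions, and Klf5 is a Krüppel-like zinc finger factor of proliferating basal epithelium. Sp5 is a zinc finger factor of the Sp family and a direct target of Wnt signalling through TCF/LEF, where it acts mostly as a repressor. Sox9 is an HMG box factor of progenitor cells in mammary gland, gut and hair follicle, and of cartilage. Tbx3 is a T-box repressor needed for the mammary placode. Foxq1 is a forkhead factor linked to mucous epithelium and to hair, and Onecut2 is a cut homeobox factor of liver, pancreas and gut. In mammary tissue such factors mark luminal, basal and progenitor states, and several are studied in breast cancer.

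All 9 genes were matched by identifier to GENCODE vM21 gene models on GRCm38. Elf3 lies on chromosome 1 at 135253575 to 135258568 (minus strand, 9 exons) and Ehf on chromosome 2 at 103263433 to 103303278 (minus strand, 9 exons). Grhl2 lies on chromosome 15 at 37233036 to 37363569 (plus strand, 16 exons) and Klf5 on chromosome 14 at 99298691 to 99315036 (plus strand, 4 exons). Sp5 lies on chromosome 2 at 70474923 to 70477729 (plus strand, 2 exons), Sox9 on chromosome 11 at 112782224 to 112787760 (plus strand, 3 exons) and Tbx3 on chromosome 5 at 119670669 to 119684724 (plus strand, 7 exons). Foxq1 has a single exon, on chromosome 13 at 31556134 to 31560976 (plus strand), and Onecut2 lies on chromosome 18 at 64340020 to 64400987 (plus strand, 2 exons). Exons are those of the longest coding transcript. No member overlaps another gene on its own strand.

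The library of primary tumours held 12427 cell barcodes and 173317475 unique molecular identifiers (UMIs, each standing for 1 captured RNA molecule), and that of the lymph nodes 11617 barcodes and 122207852 UMIs. After the limits on detected genes and mitochondrial UMIs and removal of doublets, 8786 tumour cells and 9729 lymph node cells remained. Clustering and fixed markers gave 6144 cancer cells in the primary tumour (69.9% of its cells, median 14010.5 UMIs) and 600 in the lymph node (6.17%, median 35058.5 UMIs). Krt8 and Krt18, the paired keratins of simple epithelium, stood at 1748 and 1553 CPM (UMIs of the gene scaled to a common total) in the tumour cancer cells and at 1048 and 1803 in those of the lymph node. The pan-leukocyte gene Ptprc was at 2.07 and 8.88 CPM in these cells. Cancer cells were named from the markers Krt8, Krt18, Krt19, Krt7, Epcam, Cldn4 and Cldn7 scored together. Epcam was at 93.8 and 51.6 CPM, Cldn3 at 183 and 263, Dsp at 153 and 142 and Tjp1 at 119 and 146 in the same cells, whereas the junction genes Cdh1 (E-cadherin, 26 and 4 UMIs) and Cldn7 (2 and 4 UMIs) were almost without UMIs. Between the libraries 47 barcodes were shared, 21 of them in tumour and 5 in lymph node cancer cells, and without them the ratios of the 9 genes over all cancer cells kept their direction and the same number lay at least 2-fold apart. Another 8 lymph node cells, rich in salivary gland transcripts and 4 of which had clustered with the cancer cells, were set aside.

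Promoters were found in the RefSeq table (GRCm38.p6) for 2 members, Elf3 and Sp5. Both are shown, and they were not picked for the direction in which their genes differed between the tissues. Each runs 5′ to 3′ on the strand of its gene from 250 bases before the start site to 50 bases after it. The Elf3 promoter is chr1:135258423-135258722 on the minus strand, with the ETS core GGAA, or TTCC where it lies on the other strand, in capitals. The Sp5 promoter is chr2:70474673-70474972 on the plus strand, with the TCF/LEF letters CTTTGAT in capitals.
Elf3: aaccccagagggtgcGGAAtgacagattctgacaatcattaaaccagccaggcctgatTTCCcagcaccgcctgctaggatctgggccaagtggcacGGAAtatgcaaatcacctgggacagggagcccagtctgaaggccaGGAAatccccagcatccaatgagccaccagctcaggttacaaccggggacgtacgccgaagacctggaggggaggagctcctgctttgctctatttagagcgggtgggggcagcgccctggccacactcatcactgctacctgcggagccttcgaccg
Sp5: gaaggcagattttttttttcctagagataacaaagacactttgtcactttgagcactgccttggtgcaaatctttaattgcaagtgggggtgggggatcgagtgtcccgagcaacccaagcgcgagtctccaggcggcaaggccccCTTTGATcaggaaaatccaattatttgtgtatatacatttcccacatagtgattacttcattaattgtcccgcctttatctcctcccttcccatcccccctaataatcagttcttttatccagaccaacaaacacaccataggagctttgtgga
Both promoters held 4 ETS cores, on either strand, a letter string present in 96.0% of the 32851 promoters of the table, and 1 match to the SOX string ACAAT, present in 31.0%. The cores are in capitals in the Elf3 promoter alone. The Sp5 promoter held 1 match to CTTTGAT, 104 bases before the start site, and 3.73% of all promoters hold that string on either strand. Neither window held the grainyhead string AACCGGTT (0.146% of all promoters) or the GC box GGGCGG (35.7%), and the Elf3 window held no CTTTGAT. The GC content was 59% for Elf3 and 45% for Sp5, beside a median of 52.7% over all promoters.

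In the primary tumour, 8 of the 9 genes had nearly all of their UMIs in cancer cells, where cancer cells also held 91.5% of the UMIs of all genes. All 32 Grhl2 UMIs were in them. Cancer cells held 98.8% of Elf3 UMIs, 98.8% of Ehf, 98.7% of Sp5, 98.3% of Sox9, 97.7% of Tbx3, 99.1% of Foxq1 and 99.0% of Onecut2. In the lymph node, where cancer cells held 39.7% of the UMIs of all genes, the shares were 97.4% for Elf3, 88.9% for Ehf, 96.9% for Sp5, 96.2% for Sox9, 95.8% for Tbx3, 96.3% for Foxq1 and 97.7% for Onecut2. For these 7 genes the share in cancer cells was above that of all genes in both tissues, and the genes had been chosen by their cancer cell UMIs. Grhl2 in the lymph node and Klf5 in both tissues differed. Cancer cells of the lymph node held 31.8% of Grhl2 UMIs (21 of 66) and 47.1% of Klf5 UMIs (24 of 51), and those of the tumour held 33.3% of Klf5 UMIs (21 of 63).

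**Figure D1:**
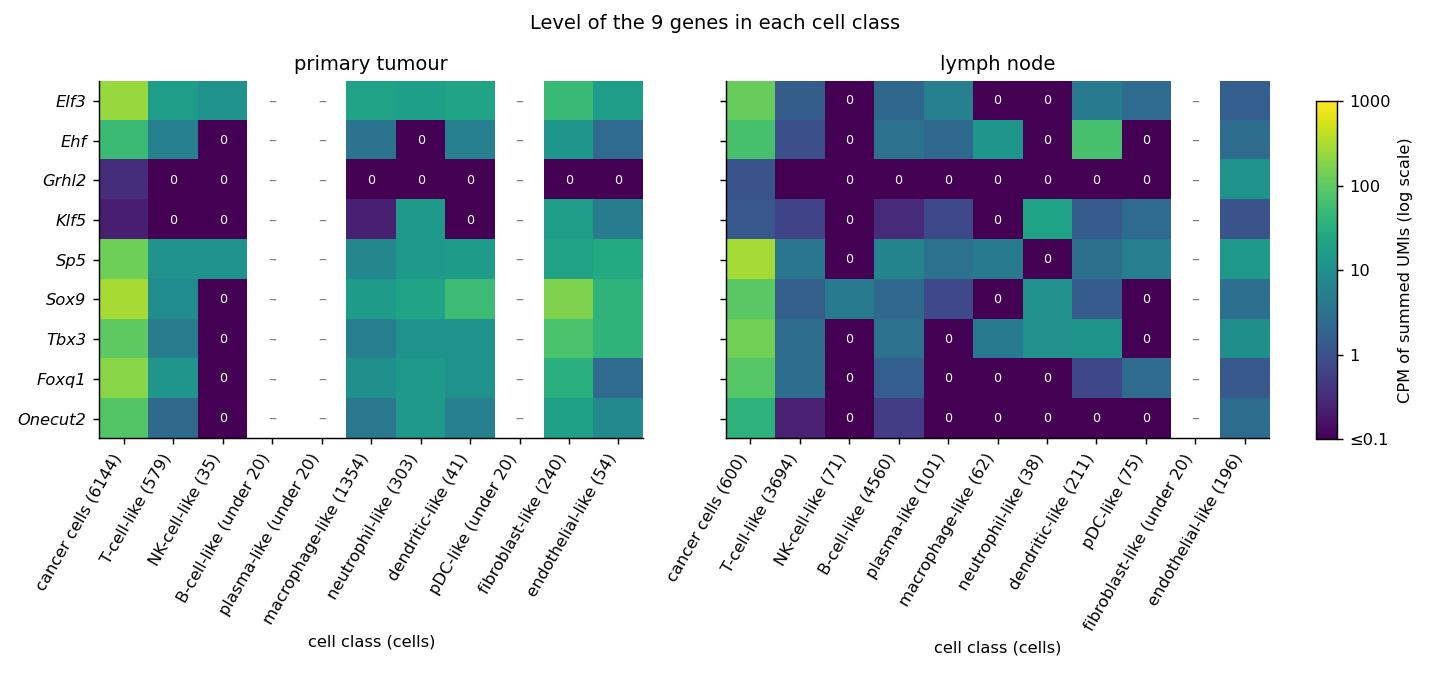
Level of each of the 9 genes (rows) in each cell class of the primary tumour (left) and lymph node (right), as CPM of summed UMIs on a logarithmic colour scale, where 0 marks no UMI, a dash marks a class under 20 cells, and numbers in brackets are cells. Of the 7 abundant genes cancer cells carried the highest level in both libraries, and fibroblast-like, dendritic-like and endothelial-like cells stood out for Sox9 and Tbx3, Ehf, and Grhl2 respectively.

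Levels in other cells were read beside the keratins, which these cells should lack. In T-like cells Krt8 was at 7.49% of the cancer cell level in the tumour and 1.48% in the lymph node. Elf3 was at 6.93% and 1.27%, Sox9 at 2.97% and 1.73%, and Sp5 at 8.66% and 1.28% in the same cells. When each cell was thinned to 1000 UMIs, Sox9 was detected in 25.6% of tumour cancer cells [24.5, 26.7] and in 0.575% of T-like cells [0.0999, 1.80] (median depths before thinning of 14010.5 and 1559 UMIs). Sp5 of the lymph node was detected in 23.5% of cancer cells [20.2, 27.1] and 0.440% of T-like cells [0.252, 0.712] (median depths of 35058.5 and 2989 UMIs). Most members were near the keratins in lymphocytes, and some lay above them. In lymph node T-like cells Foxq1 was at 3.16% of its cancer cell level and Klf5 at 52.4% (8 UMIs), beside 1.48% and 1.21% for Krt8 and Krt18. In lymph node B-like cells Ehf was at 4.42% (29 UMIs in 4560 cells) and Klf5 at 26.4% (3 UMIs), beside 2.11% and 1.67%.

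Fibroblast-like cells of the tumour (240 cells) carried Sox9 and Tbx3 at a higher share of the cancer cell level than the keratins. Sox9 was at 170 CPM [152, 190], 57.6% of its cancer cell level, and Tbx3 at 74.1 CPM [62.5, 87.2], 73.1% of it, where Krt8 and Krt18 were at 25.5% and 24.4%. Klf5 was at 16.98 CPM [11.7, 23.8] on 33 UMIs in 24 cells, beside 0.216 CPM in cancer cells and 14.4 CPM in neutrophil-like cells, the latter on 4 UMIs. In the 113 fibroblast-like cells without a Krt8 or Krt18 UMI, Sox9 was at 122 CPM [95.3, 154], Tbx3 at 60.1 [41.9, 83.7] and Klf5 at 29.2 [17.02, 46.8]. The 99 Sox9-positive cells nonetheless carried more Krt8 than the other 141 (752 against 120 CPM). They carried less of the fibroblast gene Dcn (842 against 1251 CPM). The 75 Tbx3-positive cells carried more Krt8 (566 against 335 CPM) and less Dcn (530 against 1505 CPM). The 24 Klf5-positive cells carried less Krt8 (258 against 475 CPM) and less Dcn (186 against 1175 CPM). The part of cancer cell RNA in the fibroblast-like values was not tested. Elf3 was at 6.87 CPM in the keratin-free cells (4 UMIs) and at 69.8 CPM in the 127 with a keratin UMI. Foxq1 had 1 UMI in the former, Sp5 had 3, and Ehf, Onecut2 and Grhl2 had none. Sox9, Tbx3 and Klf5 were therefore found in fibroblast-like cells with and without keratin UMIs, whereas Elf3, Ehf, Sp5, Foxq1 and Onecut2 were found there mostly in the cells that also carried keratin.

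Ehf in the lymph node was also found outside the cancer cells. In the 211 dendritic-like cells it reached 68.3 CPM [55.0, 83.7], 98.6% of the cancer cell level of 69.2 CPM [65.6, 73.0], whereas Krt8 was at 1.35%. The 92 Ehf UMIs lay in 26 cells, with at most 10 in 1 cell, and the 173 dendritic-like cells without keratin UMIs held 65.0 CPM [50.8, 81.8]. The 26 Ehf-positive cells carried more Ccr7 (3046 against 1150 CPM) and Fscn1 (1772 against 918 CPM), genes of migratory mature dendritic cells, than the other 185. They carried less of the type 1 dendritic cell genes Xcr1 (28.7 against 71.6 CPM) and Clec9a (28.7 against 67.3 CPM). These values rest on 5 UMIs each, found in 3.85% of the Ehf-positive cells, and their intervals overlap in part. Of the other markers of the class, Flt3 (103 against 86.1 CPM) and Cd209a (51.6 against 32.4 CPM) were higher in them. Zbtb46 (51.6 against 56.3 CPM) was lower, and the intervals of these markers overlapped. In the tumour only 41 cells were dendritic-like, and a corresponding comparison was not made.

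Grhl2, known as a gene of epithelia, was most abundant in endothelial-like cells of the lymph node. It stood there at 11.5 CPM [8.35, 15.4], against 1.05 CPM [0.649, 1.60] in the lymph node cancer cells and 0.329 CPM [0.225, 0.464] in those of the tumour. Its 44 UMIs came from 13 of 196 cells, 1 of which held 13. The Grhl2-positive cells were deeper (median 29811 against 12104 UMIs) and the endothelial gene Pecam1 was at 134 CPM [103, 172] in them and 143 [130, 156] in the others. Krt8 was at 15.2 CPM [6.10, 31.3] and 24.1 [19.1, 29.9]. Grhl2 was at 22.0 CPM in the 53 endothelial-like cells with a keratin UMI (median 32669 UMIs) and at 4.03 CPM in the 143 without (median 9826). Sp5 stood at 14.1 CPM [10.6, 18.4] in the same class, and there the positive cells carried 82.0 CPM of Krt8 against 7.87 in the others, so that Krt8 was higher in Sp5-positive cells and not in Grhl2-positive ones. The part of captured cancer cell RNA in these values was not tested.

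Between the tissues, the 7 genes with at least 100 UMIs differed in direction. Sox9, Onecut2, Foxq1 and Elf3 were at least 2-fold lower in lymph node than in primary tumour cancer cells, Sp5 was at least 2-fold higher, and Tbx3 and Ehf were higher by less than 2-fold. These 5 of 7 genes past 2-fold (1 higher, 4 lower) stand beside 4.42% of 10722 genes with at least 100 UMIs that were at least 2-fold higher and 9.50% that were at least 2-fold lower. Since the genes were listed with these libraries in view, the count describes them and is no evidence about the group. The median log2 ratio of the 7 genes was −1.04, and with Grhl2 and Klf5 included, which rest on few UMIs, the median of all 9 was 0.37, of opposite sign. Over all genes tested the median was −0.18. The upper limit on detected genes bears on these values, since without it the lymph node held 1268 cancer cells instead of 600. Grhl2 then passed the limit of 100 UMIs (log2 ratio 2.42), 6 of 8 genes were past 2-fold (2 higher, 4 lower, beside 6.41% and 9.58% of all genes), and the median of the 8 was −0.31.

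Among the 7 genes of at least 100 UMIs Sox9 differed most, at 296 CPM [292, 299] in the tumour and 95.1 CPM [90.9, 99.5] in the lymph node, 3.11-fold lower in the latter (log2 ratio −1.64 [−1.70, −1.57]). Onecut2 was at 85.5 CPM [83.7, 87.4] and 38.6 CPM [36.0, 41.4], 2.21-fold lower (−1.15 [−1.25, −1.04]). Foxq1 was at 194 CPM [191, 197] and 89.5 CPM [85.4, 93.7], 2.17-fold lower (−1.12 [−1.19, −1.05]). Elf3 was at 242 CPM [239, 245] and 118 CPM [113, 122], 2.06-fold lower (−1.04 [−1.10, −0.98]). The counting intervals of the tissues did not overlap for any of these 4 genes. Onecut2, Foxq1 and Elf3 lay close to the 2-fold limit, and with the median of all tested genes set to 0 Sox9 (−1.46) stayed past it, while these were inside it (−0.97, −0.94 and −0.86). Under that scaling 6.52% of genes were at least 2-fold higher and 6.50% at least 2-fold lower.

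Sp5 had the opposite direction. It was at 129 CPM [127, 131] in the tumour and 287 CPM [280, 295] in the lymph node, 2.23-fold higher there (1.16 [1.11, 1.20]), or 1.33 on the log2 scale relative to the median gene. Tbx3 was at 101 CPM [99.4, 103] and 141 CPM [136, 147], 1.40-fold higher (0.48 [0.42, 0.54]). Ehf was at 53.6 CPM [52.1, 55.0] and 69.2 CPM [65.6, 73.0], 1.29-fold higher (0.37 [0.28, 0.46]), so the pair of ETS factors went in opposite directions. Klf5 had 21 UMIs in the tumour and 24 in the lymph node (0.216 and 1.20 CPM, log2 ratio 2.47 [1.57, 3.39]). Grhl2 had 32 and 21 UMIs (log2 ratio 1.69 [0.81, 2.51]). Both were below the limit of 100 UMIs in each tissue, and in the lymph node both were more abundant in another class than in cancer cells (Klf5 on 2 UMIs in neutrophil-like cells), so their ratios are given as values only.

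**Figure D2:**
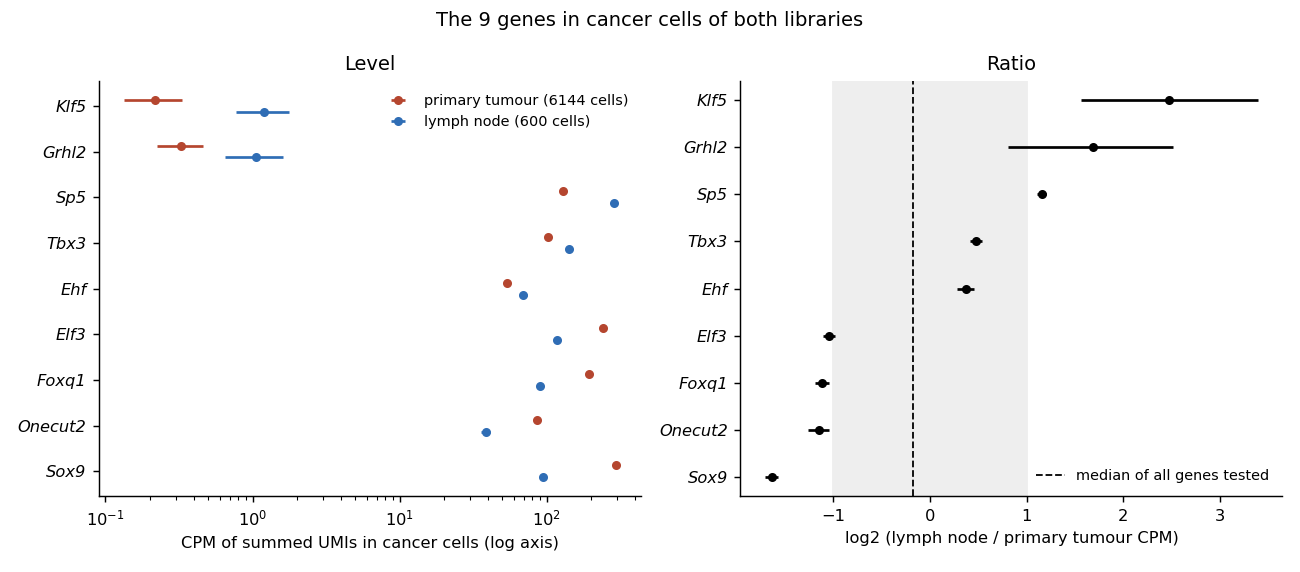
Left, CPM of each gene in cancer cells of either tissue, 1 point per library on a logarithmic axis, and right, the log2 ratio of lymph node over primary tumour, with the range under 2-fold in grey and the median of all genes tested dashed; bars are 95% intervals that cover counting error only. Sox9, Onecut2, Foxq1 and Elf3 lie lower in the lymph node and Sp5, Tbx3 and Ehf higher, with Klf5 and Grhl2 near 1 CPM or below.

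The fixed lists of related genes gave a setting for these values. Of 17 other epithelial transcription factor genes only 5 reached 100 UMIs, and 2 were at least 2-fold lower in the lymph node, Foxa1 (−1.31), a pioneer factor of luminal cells, and Klf4 (−1.19), a factor of epithelial differentiation. The median of the 5 was −0.57, and none was at least 2-fold higher. Ovol1 and Ovol2, repressors of mesenchymal genes, and Elf5, the alveolar ETS factor, had between 0 and 2 UMIs in the cancer cells of each library. Of 7 transcription factor genes of epithelial-mesenchymal transition, 4 were measured with a median of −0.30, and 1 was at least 2-fold higher, Twist2 (1.03). Of 13 epithelial junction and splicing genes, 6 were measured with a median of −0.06, and only Cldn4 was past 2-fold, at 65.1 CPM in the tumour and 3.54 in the lymph node (−4.19). All 11 Wnt target genes were measured, with a median of −0.24. Of these Lef1 (3.08) was at least 2-fold higher and none was 2-fold lower. Of the other 10, Nkd1, a feedback inhibitor of the pathway, was higher by less than 2-fold (0.88 [0.82, 0.94]), and 9 had ratios below 0, among them Axin2 (−0.39), Lgr5 (−0.76) and Znrf3 (−0.89). The Lef1 value rests on 110 and 63 UMIs, and Lef1 stood at 409 CPM in T-like cells of the lymph node, so the part of lymphocyte RNA in it was not tested.

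Most cancer cells of the 2 tissues lay in different clusters. In the tumour 2721 cells were in cluster 0 (led by Elf3, Mt4, Sox9 and Krt8, 90.9% in G1), 1488 in cluster 4 (Cenpf, Wnt6 and Ube2c, 3.36% in G1) and 1426 in cluster 5 (Tff1, Foxq1, Alb, Sox9, Onecut2 and Cldn4). Of the 600 lymph node cells, 502 were in cluster 10 (Tff2, Krt19 and Id1), which was nearly all of 1 library and may be that library rather than a type of cell. Several members lead these clusters, so levels by cluster are a description. In the tumour Sox9 was at 533 CPM in cluster 5, 372 in cluster 0 and 98.6 in cluster 4. Foxq1 followed the same order, at 427, 189 and 66.9 CPM, as did Onecut2, at 171, 97.8 and 26.7 CPM. Ehf did likewise at 91.2, 59.3 and 27.8 CPM, and Elf3 was highest in cluster 0, at 385 CPM against 263 in cluster 5 and 112 in cluster 4. Sp5 ran the other way, at 54.5 CPM in cluster 5, 79.6 in cluster 0 and 214 in cluster 4, and Tbx3 went with it at 56.0, 83.1 and 148 CPM. Clusters 12 (320 cells, led by Cyp1a1 and Serpinb9b) and 16 (188 cells of low depth) held most of the remaining cells, and in cluster 12 Sp5 was at 202 CPM and Sox9 at 116.

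**Figure D3:**
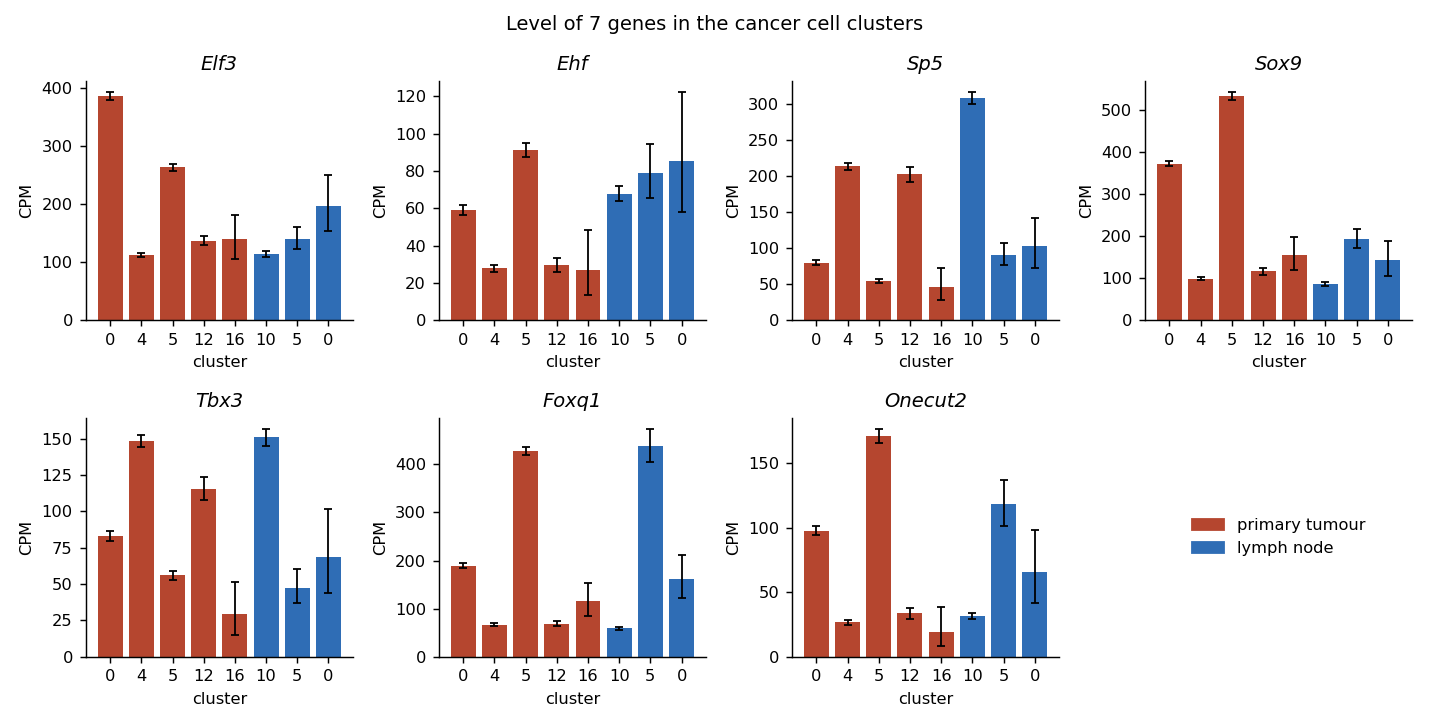
CPM (bars, linear axes from 0 that differ between panels) of the 7 abundant genes in each cancer cell cluster of at least 20 cells of the primary tumour (red) and lymph node (blue), with 95% Poisson intervals. In the tumour Sox9, Foxq1, Onecut2 and Ehf peaked in cluster 5 and Elf3 in cluster 0, while Sp5 and Tbx3 peaked in cluster 4, and in the lymph node Foxq1 and Onecut2 were highest in cluster 5 and Sp5 and Tbx3 in cluster 10.

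Clusters 5 and 0 held at least 20 cancer cells of both tissues, with 64 lymph node cells in cluster 5 and 20 in cluster 0. Within cluster 5 Foxq1 was at 427 CPM in the tumour and 438 in the lymph node (log2 ratio 0.04 [−0.08, 0.15]). Foxq1, Sox9 and Onecut2 are among the leading genes of that cluster, so their ratios within it are given as a description and nothing is read from them. Sox9 was lower in the lymph node, at 533 and 194 CPM (−1.45 [−1.63, −1.29]), and so did Elf3 (−0.90 [−1.11, −0.71]) and Onecut2 (−0.53 [−0.76, −0.31]). Sp5 was higher (0.74 [0.46, 0.99]), while the intervals of Ehf (−0.20 [−0.49, 0.06]) and Tbx3 (−0.22 [−0.60, 0.12]) held 0. Of the 7 genes, 1 lay at least 2-fold apart in cluster 5 (Sox9, lower), where 1.57% of all genes tested were at least 2-fold higher and 6.34% lower, with a median of −0.13. In cluster 0 Sox9 (−1.37 [−1.81, −0.98]) and Elf3 (−0.96 [−1.33, −0.63]) were lower in the lymph node. The intervals of Sp5 (0.39 [−0.15, 0.84]), Ehf (0.55 [−0.04, 1.05]), Tbx3 (−0.25 [−0.92, 0.30]), Foxq1 (−0.21 [−0.62, 0.16]) and Onecut2 (−0.54 [−1.24, 0.01]) held 0 there. Cluster 10 of the lymph node held 308 CPM of Sp5 and 58.8 of Foxq1, and cluster 5 held 90.5 and 438.

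Cell cycle phase and depth moved with the levels. In the tumour Sp5 was at 89.1 CPM in G1 cells, 181 in S and 168 in G2M, and Tbx3 at 79.2, 110 and 133. Elf3 was at 321, 162 and 154 CPM in the same phases, Sox9 at 375, 171 and 230, Foxq1 at 230, 111 and 178, and Onecut2 at 114, 45.9 and 58.9. From the lowest to the highest tertile of depth, Elf3 went from 397 to 185 CPM and Sp5 from 93.1 to 153. In the lymph node the phases gave the same order for Sp5 (246 CPM in G1, 313 in S and 312 in G2M) and for Elf3 (158, 95.6 and 91.9). Lymph node cancer cells were also deeper than those of the tumour, so the ratios between tissues were computed in subsets. In G1 cells alone the log2 ratios were 1.47 for Sp5, −1.79 for Sox9, −1.02 for Elf3, −0.88 for Foxq1 and −1.25 for Onecut2. In cells of 10000 to 60000 UMIs, a range within which depths were not matched, they were 1.09 for Sp5, −1.54 for Sox9, −0.89 for Elf3, −1.04 for Foxq1 and −1.05 for Onecut2. Directions were as over all cancer cells, and Foxq1 in G1 cells and Elf3 in the depth range were less than 2-fold apart.

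Within single cancer cells, detection was common and uneven. In the tumour, Sox9 had a UMI in 81.9% of cells and Elf3 in 81.1%, and after thinning each cell to 5000 UMIs (5410 cells, 734 shallower ones left out) the shares were 63.7% [62.4, 64.9] and 58.8% [57.4, 60.1]. Foxq1 had a thinned share of 46.7% [45.4, 48.1], Sp5 38.0% [36.7, 39.3], Tbx3 34.4% [33.1, 35.7], Onecut2 31.7% [30.5, 33.0] and Ehf 23.0% [21.9, 24.2]. In the lymph node (588 cells, 12 left out) Sp5 was detected in 68.1% [64.2, 71.8] and Tbx3 in 46.9% [42.8, 51.0] of thinned cells. There Elf3 was detected in 40.4% [36.4, 44.5], Sox9 in 32.8% [29.0, 36.8], Foxq1 in 29.4% [25.7, 33.3], Ehf in 27.9% [24.3, 31.7] and Onecut2 in 17.8% [14.8, 21.1]. At equal depth Sp5 was thus detected in most lymph node cancer cells, and Sox9 and Elf3 in most tumour cancer cells. Without thinning all 3 were detected in most cancer cells of both tissues, Sp5 in 59.9% of tumour and 93.0% of lymph node cells, Elf3 in 87.5% and Sox9 in 73.5% of lymph node cells. Grhl2 was seen in 31 tumour and 19 lymph node cancer cells, and Klf5 in 20 and 22, without thinning.

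Foxq1 had the highest Fano factor of the 7 abundant members in both tissues. This factor (the variance of thinned UMIs over their mean, 1 for random sampling of an even level) was 2.94 for Foxq1 in the tumour and 2.51 in the lymph node. Without thinning, the 10% of cells richest in Foxq1 held 48.2% of its UMIs in the tumour and 46.2% in the lymph node, and a single tumour cell held 68. Sox9 (2.59 and 1.76) and Elf3 (2.55 and 1.70) followed, and Ehf had the lowest value in both tissues (1.22 and 1.15). Tbx3 (1.33 and 1.21), Sp5 (1.42 and 1.39) and Onecut2 (1.65 and 1.23) lay between. The factor grows with the mean level, so its values are not compared between tissues or adjusted for level.

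**Figure D4:**
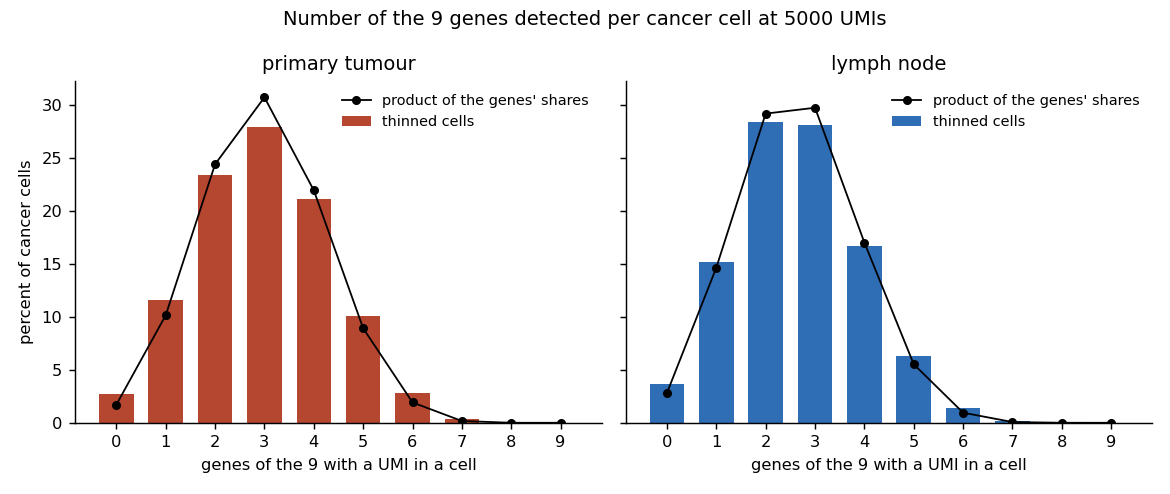
Share of cancer cells thinned to 5000 UMIs (bars, in percent) by number of the 9 genes detected in the cell (horizontal axis) for each library, with the share given by multiplying the single-gene shares as points joined by a line. Cells with 0 genes and with 5 or more were somewhat more frequent than the product in both libraries.

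Thinned tumour cells carried 3 of the 9 genes most often (28.0% of cells), and 2.70% carried none, where independent detection would give 1.71%. At the other end 13.2% carried 5 or more, where independence would give 11.02%. Of lymph node cells 3.65% carried none (2.81% by the product) and 7.84% carried 5 or more (6.55%). At full depth 9 tumour and 7 lymph node cells carried 8 of the genes and no cell carried all 9.

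Pairs of genes were compared by the co-detection ratio, the share of thinned cells with both genes over the product of their shares. Over the 36 pairs the median ratio was 1.01 in the tumour and 0.985 in the lymph node. In the tumour 1 pair (Klf5 and Sp5, 1.61 [0.31, 4.82], on about 2.85 cells with both) and in the lymph node no pair reached 1.5, beside 3.0% of all pairs of a member with another gene in the tumour and 1.51% in the lymph node. Pairs of Klf5 and Grhl2 made up most of that background in the tumour (15.6% and 10.8% of theirs, beside at most 0.227% for each of the 7 abundant genes), so it is no measure for pairs of abundant genes. Pairs among the 7 abundant genes fell into a pattern, and the grouping that follows was made after the values were seen. In the tumour the 10 pairs within Elf3, Ehf, Sox9, Foxq1 and Onecut2 had ratios of 1.06 to 1.24, each with an interval above 1, and Foxq1 with Onecut2 was among the highest at 1.24 [1.16, 1.32]. Sp5 with Tbx3 had 1.24 [1.16, 1.33]. The 10 pairs across these sets had ratios of 0.785 to 0.993, and 7 had intervals below 1, the lowest being Sp5 with Onecut2 at 0.785 [0.718, 0.856]. When the product was formed within each cluster, the ratios came to 1.00 to 1.09 for the first set, 1.09 for Sp5 with Tbx3 and 0.986 to 1.1 across. Within clusters the ratios lay closer to 1 except for Tbx3 with Foxq1 (0.969 overall and 1.096 within), Ehf (0.961 and 1.08) and Elf3 (0.993 and 1.05).

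**Figure D5:**
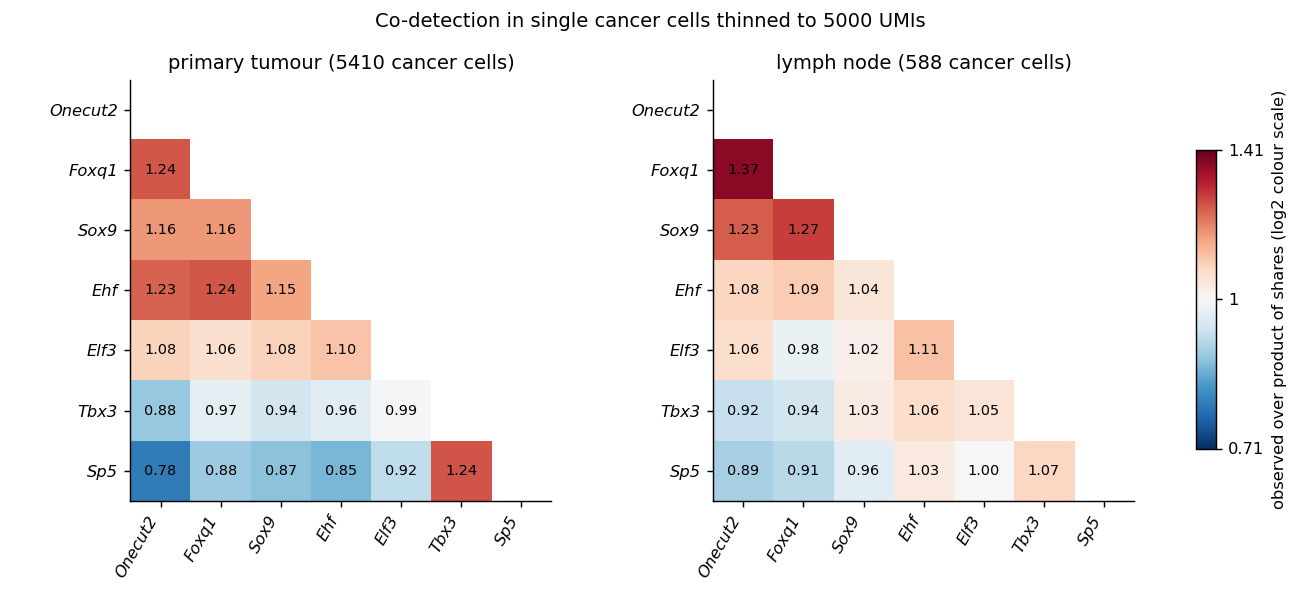
Co-detection ratio of each pair of the 7 abundant genes in tumour and in lymph node cancer cells thinned to 5000 UMIs, on a log2 colour scale centred at 1 with the ratio printed in each cell. In the tumour, pairs within Elf3, Ehf, Sox9, Foxq1 and Onecut2 and the pair of Sp5 and Tbx3 lie above 1 and pairs across lie below 1.

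Lymph node pairs within the 5 genes had ratios of 0.978 to 1.37, the highest Foxq1 with Onecut2 at 1.37 [0.98, 1.85], and Sp5 with Tbx3 had 1.07 [0.93, 1.23]. Pairs across ran from 0.892 to 1.06. With 588 cells, all 21 intervals of the 7 abundant genes held 1.

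Outside the list, the genes most like each member in tumour cancer cells were named by the co-detection ratio, among genes detected in at least 5% of thinned cells. Rarer genes had higher ratios with some members. These partners included leading genes of the clusters described above. The highest ratios of Foxq1 under that limit were with Tff1 (1.51), a trefoil peptide of mucous epithelium, and Sema7a (1.49), and those of Sox9 with Sema7a (1.30) and the claudin gene Cldn4 (1.25). Elf3 was highest with Mt4 (1.25), a metallothionein of stratified epithelium, and Ypel2 (1.23), Ehf with Sema7a (1.44) and Sema6a (1.43), and Onecut2 with Oaf (1.62) and Tenm4 (1.58). Sp5 was highest with Cyp1a1 (1.68), a xenobiotic-metabolising enzyme, and the mitotic regulator Fbxo5 (1.56), and Tbx3 with Cyp1a1 (1.44) and the spindle gene Aspm (1.39). For Grhl2 and Klf5 the shares of cells were too small to name a partner. Across the 18 class-by-library groups of at least 20 cells, the level of Foxq1 followed that of the protease gene Tmprss2 most closely (Pearson r = 0.985 of log2(CPM + 10)), Onecut2 that of the desmosomal cadherin gene Dsg2 (0.993), Elf3 that of Stra6 (0.962) with Dsg2 next (0.961), and Sox9 that of the desmosomal plakophilin gene Pkp2 (0.957). Sp5 followed Serpinb5 (0.963), Tbx3 Tnfrsf11b (0.943) and Ehf Myo5b (0.923). These values describe the contrast of cancer cells with other classes, and the groups share 2 libraries and their background RNA.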

How the data were processed

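The analysis covered 2 libraries of the 10x Genomics 3′ assay, 1 of primary tumours and 1 of lymph nodes, each a pool of 6 mice. The authors deposited UMI counts without normalization, made per the file headers with Cell Ranger 5.0.0, whereas the submitters' processing notes give 2.1.1 and GRCm38. The study left out genes seen in few cells, but 4025 of the 22620 listed genes had no UMI in either library, so that limit had not been applied to the deposited list, and how the list was made is not given in the sources used here. Strand handling in counting is not stated. Because antisense counting was not described, Foxq1 and the opposite-strand gene A530084C06Rik, which is also in the matrices, may share reads. Their overlap runs from 31556134 to 31559333 and does not reach the 3′ end of Foxq1 at 31560976. Whether reads were shared was not tested.

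Cells with more than 200 and at most 6000 genes and at most 5% mitochondrial UMIs were kept, the limits of the study. Doublets were called by a rebuilt Scrublet procedure (361 tumour cells). The automatic threshold failed in the lymph node library (1 call), so its scores above the 94th percentile were removed (576 cells). The 2000 most variable genes per library, 30 principal components, 15 neighbours and Leiden clustering at resolution 1 (python-igraph 0.11.9, numpy 2.4.6, scipy 1.17.1, scikit-learn 1.9.0) gave clusters, which were named from fixed markers by a scoring rule set after the data were seen. Classes other than cancer cells are therefore written as "like". No integration was applied. Cells with more than 5% of UMIs in salivary gland genes were set aside, also after the data were seen. Phases used the gene lists of Seurat 5.3.0.

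Levels are UMIs summed over a class and scaled to CPM. Ratios between tissues used a pseudocount of 0.5 UMIs and genes of at least 100 UMIs in the cancer cells of either library, and "past 2-fold" is the only call, since 1 library per tissue allows no test. Shares, Fano factors and co-detection used cells thinned to 5000 UMIs (1000 between classes). Scripts were tested on simulated data. Named genes were the 9 genes, fixed lists of related genes, leading genes of clusters and the 2 genes most like each member. The members and lists were chosen with earlier results of these data known. Labels give each tissue 1 replicate.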

Additional observations from a re-analysis of the deposited data

How the results depend on the processing

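Of 117 ratios between tissues (9 genes under 13 alternatives), 113 kept their direction. The alternatives were a mitochondrial limit of 10%, no upper limit on genes, doublets kept, each library clustered alone, cells named by markers, single-cell means, cells of 10000 to 60000 UMIs, median centring, the richest cell left out, salivary-like cells kept, G1 cells only, shared barcodes left out and cluster 5 only, of which the last 4 were chosen after seeing the data, as was a limit of 100 UMIs on the median. The exceptions were all in cluster 5 alone, where Grhl2 (−0.27, on 0 lymph node UMIs) and Foxq1 (0.037) changed sign and Ehf and Tbx3 were below 0. The counting intervals of all these ratios held 0. The median log2 ratio of the 9 genes, 0.37, became 0.55 with the median of all genes set to 0, −0.22 in cluster 5 and −1.04 over the 7 genes of at least 100 UMIs. Over the genes of at least 100 UMIs the median was −0.31 with no upper limit on genes, which raised the lymph node cancer cells from 600 to 1268. The number of genes at least 2-fold apart, 5, became 2 with the median set to 0 and 1 in cluster 5. With a limit of 20 UMIs it was 7 of 9 genes (3 higher, 4 lower), where 7.52% of genes were higher and 10.8% lower.

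The median share of kept UMIs held by cancer cells, 98.8% in the tumour, became 99.2% with the mitochondrial limit of 10%, 99.0% with no upper limit on genes, 96.1% with doublets kept, 98.4% with libraries clustered alone and 96.0% when cells were named by markers. In the lymph node, 96.2% became 94.4% with no upper limit on genes and 79.7% by markers. The median tumour co-detection ratio, 1.01, became 0.935 at 2000 UMIs per cell. The cause of these shifts was not tested. No paired analysis was possible because the labels give each tissue a single replicate. Grhl2 and Klf5 had at most 32 UMIs in the cancer cells of either library, which limits the precision of their ratios and co-detection.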
